A study of Danio rerio with 2 samples.

Results

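Bulk RNA-seq of EGFP+ cells sorted from cd8a:EGFP transgenic zebrafish was read for the genes that encode the protein parts of the cytosolic ribosome. Every gene whose symbol starts with *rpl* or *rps* and a digit was taken, with *rplp0*, *rplp1*, *rplp2* and *faua*, while the *rps6k* kinases, *rps19bp1* and *rps27l* were left out. This gave 82 of 32520 genes, 46 of the large and 36 of the small subunit. The melanoma library was made from EGFP+ myeloid cells sorted out of melanomas, which the labels also call dendritic. The fish with tumors carried the cd8a:EGFP and BRAF V600E transgenes with other alleles of this melanoma model and, as nacre null fish, lacked *mitfa*, which an injected vector put back in their pigment cells. For this library, the labels also give 24 h of SB431542, an inhibitor of TGF-β receptors. The thymus library was made from lymphocytes of untreated fish, which the labels describe as positive for lck:mCherry and for CD8:EGFP. Both labels give an age of 6 weeks, although the methods of the paper give another age for the thymus donors. EGFP was driven by a cloned stretch upstream of *cd8a*, which marks both lymphocytes and myeloid cells. The number of fish pooled into each library is not given in the sources used here. Each group had 1 library, so no test between the groups was possible, and every difference compares these libraries, not the conditions. Tissue, cell type, genotype, reporter and drug differ between them together and cannot be told apart.

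The ribosome is built of ribosomal RNAs and a large set of proteins. Its small subunit reads the mRNA and the large subunit links the amino acids and lets the new chain out through a tunnel. Each protein is held in the particle once, apart from the stalk proteins, and cells keep their genes in step, partly through a pyrimidine-rich start of the mRNA that responds to mTOR. Surplus proteins of the 5S RNA particle bind Mdm2, a ubiquitin ligase. In zebrafish, heterozygous loss of certain ribosomal protein genes leads to tumors, and loss of *rpl22* impairs T cell development.

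The melanoma myeloid library had 39446435 reads on genes and the thymus library 32975680. CPM is a gene's reads per 1000000 of these and is not scaled for transcript length, so it is compared here between libraries for the same gene and not between genes. Intervals are 95% intervals that cover counting error alone, since the cDNA was amplified and no molecular identifiers were used. Where no read was found, a level of up to 0.0761 CPM in the myeloid cells and 0.0910 CPM in the lymphocytes, worth 3 reads, remains possible. Of 13 T cell genes, 2 were at 1 CPM or more in the myeloid cells, where 4 were at 0, and all 13 were in the lymphocytes, with sums of 7.55 CPM for the myeloid cells and 2256 CPM for the lymphocytes. Of 22 phagocyte genes, 14 reached 1 CPM in the myeloid cells and 2 did in the lymphocytes, with sums of 4045 and 45.7 CPM. Most of both sums came from a single gene, *lgmn*, at 2604 CPM in the myeloid cells and 43.4 CPM in the lymphocytes. Melanocyte genes, however, were also high in the labelled myeloid cells. Of 11 such genes, 10 reached 1 CPM in the myeloid cells, where 1 was at 0, and 0 did in the lymphocytes, with sums of 24668 and 1.36 CPM. Without these and the mitochondrially encoded genes in the library sizes, the family's fold given next was 1.82 in place of 1.77, while the part of RNA from pigment cells in the family's own reads was not tested.

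Ribosomal protein genes took a larger share of the myeloid library than of the thymus library. They had 485831 reads, or 1.23% of the reads on genes (95% Wilson interval 1.228% to 1.235%), in the myeloid cells and 230016 reads, or 0.698% (0.6947% to 0.7004%), in the thymus lymphocytes. The summed level was thus 1.77-fold higher in the myeloid library (1.76 to 1.77, exact interval for counting error). With TMM, a scaling by the typical gene, it was 2.64-fold. Large subunit genes summed to 8048 CPM in the myeloid cells and 4654 CPM in the lymphocytes, and small subunit genes to 4269 and 2322 CPM. The large subunit took 65.3% of the family's reads in the myeloid cells and 66.7% in the lymphocytes. The difference between the libraries was therefore shared by both subunits, at 1.73-fold for the large and 1.84-fold for the small subunit.

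The gene with most reads of the family was *rpl3* in both libraries. It encodes a protein that reaches into the catalytic center of the large subunit. It had 45431 reads, or 1152 CPM, in the myeloid cells and 31184 reads, or 946 CPM, in the lymphocytes, and it was the only member among the 100 genes with most reads of either library. Of the family's reads it held 9.35% in the myeloid cells and 13.6% in the lymphocytes. Without it the fold of the summed level was 1.85. The next members by reads were *rpl7*, *rpl19*, *rps2* and *rpl7l1* in the myeloid cells, and *rps2*, *rpl7a*, *rplp0* and *rpl19* in the lymphocytes. *rpl7* was at 512 CPM in the myeloid cells and 221 CPM in the lymphocytes, *rpl7l1* at 446 and 235 CPM, and *rpl19*, which bridges the subunits, at 483 and 247 CPM. These 3 were close to 2-fold higher in the myeloid library, unlike *rpl3*.

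Member by member, the family leaned to the myeloid library. The median log2 ratio of myeloid over thymus, with 1 CPM added to both, was 0.99 over all 82. Over the 15139 genes that reached 1 CPM in at least 1 library, here called tested, it was −0.73. More of the tested genes reached 1 CPM in the lymphocytes (12932) than in the myeloid cells (10719), and the part of this in that median was not tested. Of the 82 members, 79 were among these genes, with a median of 1.02, and 78 of them reached 1 CPM in both libraries. A ratio above 0 was found for 73 of the 79, against 41.1% of all genes tested. A 2-fold higher level in the myeloid cells was found for 40 of the 79, or 50.6%, against 28.6% of all genes tested. None of the members was 2-fold lower, against 46.4% of all genes. All 79 lay above the median of all genes. Other scalings moved the median of all genes by up to 0.53. A scaling shifts the ratios of all genes nearly alike, so the family's distance above that median, 1.72 to 1.77, could hardly change.

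**Figure D1:**
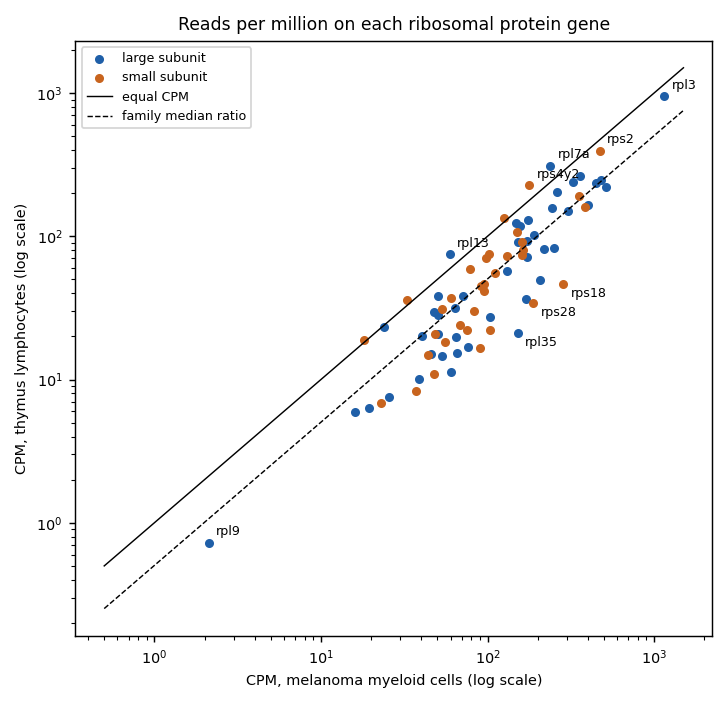
CPM of the 79 tested members in melanoma myeloid cells (x axis, log scale) and thymus lymphocytes (y axis, log scale), 1 library each. Each point is a gene. Most lie right of the line of equal CPM and around the dashed line of the family median ratio, with *rpl3* at 1152 and 946 CPM at the upper end.

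The members kept much of their order between the libraries. Across the 79 genes the correlation of CPM was 0.87 by rank and that of log2 CPM was 0.90, which is a description only, because the same gene has the same length and annotation in both. The median member was at 102 CPM in the myeloid cells, with a range of 2.13 to 1152, and at 44.7 CPM in the lymphocytes, with a range of 0.728 to 946. The ratios were much tighter than those of genes in general, with an SD of 0.73 on the log2 scale against 2.84 over all genes tested. These genes were not matched to the members for level. They include 1642 with no reads in the myeloid cells and 556 with none in the lymphocytes. The median member, by contrast, lay above 89.8% and 80.0% of the genes with reads in these libraries. The part of level in the tightness was not tested. By quartiles alone, genes of the mitochondrial ribosome were nearly as tight, at −0.22 and 1.02 against 0.56 and 1.58 for the tested members. Their full range was wider, from −4.48 for *mrps27* to 2.70 for *mrpl14*, against −0.38 to 2.81 for the tested members. The members' ratios were still wider than counting error, since the typical half-width of a member's interval was 0.09. For 72 members the interval of the fold lay above 1, and for 5 it lay below 1.

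Departure from the family was set at a log2 ratio 1 or more from the family median, that is 2-fold. Of the 79 tested members, 12 lay above it, or 15.2%, against 17.9% of all genes tested, and 6 lay below it, or 7.59%, against 58.8%. On either side there were 18, or 22.8%, against 76.7% of all genes tested. The limits were set around the family's own median, which lies above that of all genes. The smaller shares of members below it and on either side are therefore in part built in. Below it lay also 2 members that were not tested, with 5 reads or fewer in each library. The members just inside and outside the upper limit were *rpl21* (1.88) and *rps12* (2.03), and at the lower limit they were *rpl28* (0.02) and, among genes with more than 5 reads, *rps27.2* (−0.06).

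The 12 members above the family came equally from the subunits. *rpl35*, a protein at the mouth of the exit tunnel, departed most. It had 6016 reads, or 153 CPM, in the myeloid cells and 691 reads, or 20.95 CPM, in the lymphocytes, a 7.28-fold difference (6.73 to 7.89). *rps18*, in the head of the small subunit, was at 285 CPM in the myeloid cells and 46.2 CPM in the lymphocytes, or 6.17-fold higher (5.85 to 6.52). *rps28*, which lines the path by which mRNA leaves the small subunit, was at 188 and 34.1 CPM in the same order, or 5.51-fold higher (5.17 to 5.87). The intervals of all 3 lay above the family's typical fold of 1.99. This adds no support, since these members were chosen for lying farthest above it and their many reads make the intervals narrow.

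Others of the 12 were smaller in fold. *rpl14* was at 60.4 CPM in the myeloid cells and 11.3 CPM in the lymphocytes (5.32-fold), and *rpl30* was at 169 and 36.5 CPM (4.63-fold). *fau*, which the RefSeq table lists as a synonym of *faua*, encodes a ubiquitin-like protein fused to Rps30. It was at 104 CPM in the myeloid cells and 22.2 CPM in the lymphocytes (4.67-fold). The proteins of *rpl37*, *rpl39* and *rps29* are among the smallest of the ribosome. *rpl37* was at 76.3 and 16.8 CPM, *rpl39*, which sits inside the exit tunnel, at 65.9 and 15.3 CPM, and *rps29*, a zinc-binding protein of the head, at 37.4 and 8.25 CPM. Their folds were 4.54, 4.29 and 4.53. *rps12* was at 47.9 CPM in the myeloid cells and 11.01 CPM in the lymphocytes (4.35-fold).

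Below the family, *rpl7a*, a large subunit protein that binds ribosomal RNA, had 9414 reads, or 239 CPM, in the myeloid cells and 10261 reads, or 311 CPM, in the lymphocytes. The gene listed as *rps4y2*, of the Rps4 proteins of the small subunit, was at 179 CPM in the myeloid cells and 226 CPM in the lymphocytes. *rpl13* was at 59.5 and 74.9 CPM. In all, 6 tested members had a negative log2 ratio, from −0.38 for *rpl7a* to −0.06 for *rps27.2*, and all 6 turned positive with TMM, at 0.20 to 0.50, and with DESeq2 size factors, at 0.15 to 0.45. They departed from the family, and the sign of their difference between the libraries rests on the scaling.

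**Figure D2:**
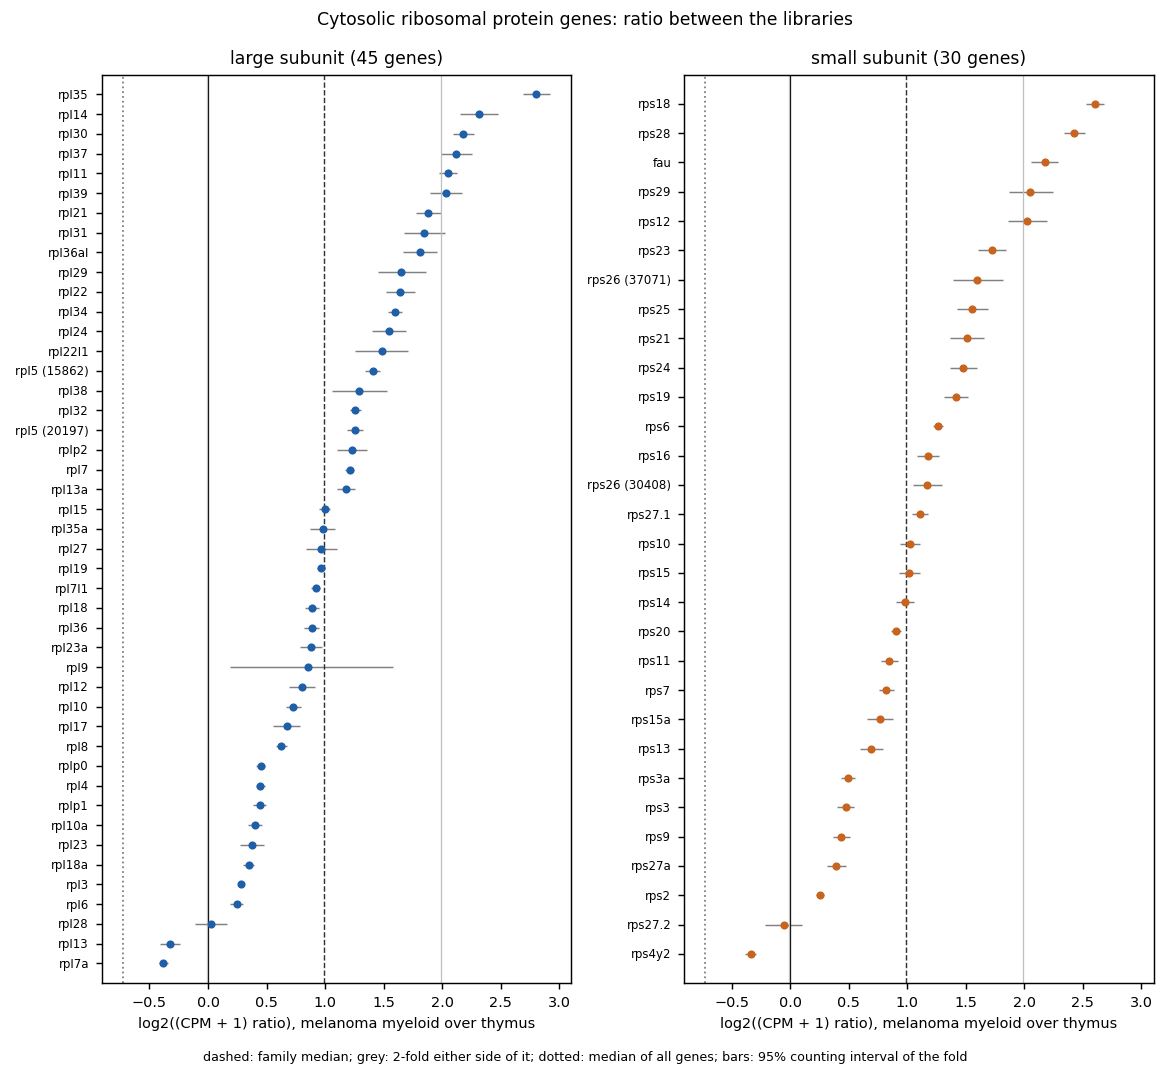
Log2 ratio of CPM + 1, melanoma myeloid cells over thymus lymphocytes, for 45 large subunit genes (left) and 30 small subunit genes (right), with 95% counting intervals as bars. The dashed line is the family median of 0.99, grey lines are 2-fold from it and the dotted line is the median of all genes, −0.73. *rpl35* (2.81) and *rps18* (2.60) head the panels, and *rpl7a* (−0.38) and *rps4y2* (−0.34) end them. Numbers after a symbol are the last digits of the Ensembl identifier.

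Ratios were higher for members with a higher number in the protein's name. Ribosomal proteins were numbered by their place on gels, so that high numbers mostly mark small proteins. The median log2 ratio was 0.56 over 22 members numbered up to 10, 0.97 over 22 members numbered 11 to 20, 1.51 over 21 members numbered 21 to 30, and 1.70 over 10 members numbered above 30. The same order held in the large subunit, at 0.68, 0.93, 1.51 and 1.70, and the small subunit ran from 0.48 for numbers up to 10 to 1.51 for numbers above 20. Across the 75 numbered members the correlation of number and log2 ratio was 0.48 (Pearson) and 0.50 (Spearman), given as a description because all points share the same 2 libraries. The summed level was 1.61-fold higher in the myeloid library over members numbered up to 20 and 2.72-fold higher over those above 20. No transcript lengths were used here, and the part of length in the ratios was not tested.

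**Figure D3:**
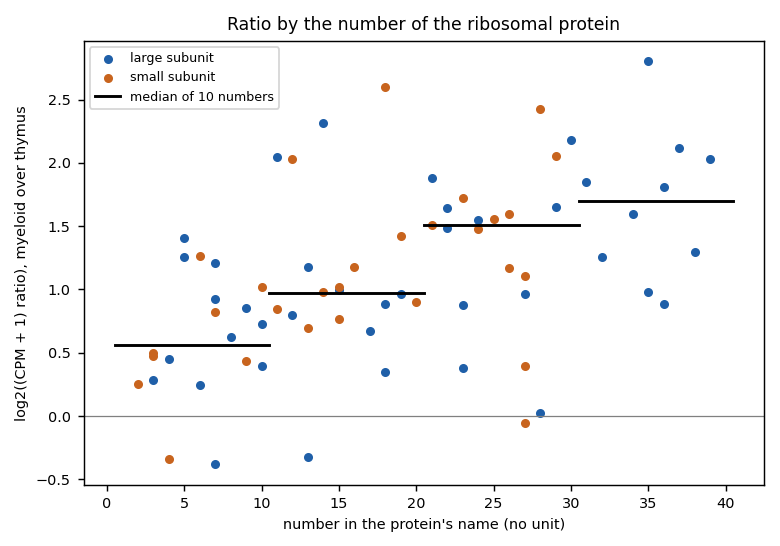
Log2 ratio of CPM + 1, melanoma myeloid cells over thymus lymphocytes (y axis), against the number in the name of the protein (x axis) for 71 members. Black bars are medians over 10 numbers, taken over all 75 numbered members, which climb from 0.56 to 1.70, with *rpl28* (0.02) and *rps27.2* (−0.06) as low points among the high numbers.

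When members were grouped by place in the ribosome, a choice made after the values were seen, the ratios of the catalytic center genes lay below the family median. *rpl3*, *rpl4*, *rpl8* and *rpl10* were taken here as the group at or near the site of peptide bond formation. They summed to 1872 CPM in the myeloid cells and 1432 CPM in the lymphocytes, with log2 ratios from 0.28 to 0.73. All carry numbers up to 10, and their median of 0.54 was close to the 0.56 over the 22 members so numbered. The low ratios were thus not particular to this group. *rpl10*, which is mutated in some human T cell leukemias, was at 152 and 91.3 CPM. Genes of the exit tunnel summed to 924 CPM in the myeloid cells and 381 CPM in the lymphocytes, and their 7 tested genes ran from 0.67 for *rpl17* to 2.81 for *rpl35*. The tunnel genes thus spanned most of the family's range.

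Genes of the stalk, which recruits the GTPases of translation, were less skewed. *rplp0* was at 358 CPM in the myeloid cells and 262 CPM in the lymphocytes, *rplp1* at 175 and 129 CPM, and *rplp2* at 50.3 and 20.9 CPM. Their log2 ratios were 0.45, 0.44 and 1.23, so *rplp2* lay apart from its partners. For the 5S particle, formed by Rpl5 and Rpl11, the summed mRNA level of the *rpl5* genes and *rpl11* was 2.95-fold higher in the myeloid library. The particle itself was not measured. *rpl11* was at 208 CPM in the myeloid cells and 49.4 CPM in the lymphocytes, a 4.203-fold difference (3.99 to 4.44), and thus above the family. *mdm2*, whose protein this particle binds, was at 78.3 CPM in the myeloid cells and 176 CPM in the lymphocytes.

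On the small subunit, genes around the mRNA entry and the decoding site summed to 851 CPM in the myeloid cells and 585 CPM in the lymphocytes. *rps2* was at 472 and 396 CPM and *rps3* at 97.9 and 70.3 CPM, while *rps23*, which helps to read the codon, was at 75.5 and 22.2 CPM. On the side where mRNA leaves, the log2 ratio was 2.43 for *rps28* and 0.98 for *rps14*, close to the family median. *rps6*, whose protein is phosphorylated by the S6 kinases, was at 387 CPM in the myeloid cells and 161 CPM in the lymphocytes (2.41-fold, 2.33 to 2.49). *rps27a*, a fusion of ubiquitin with a small subunit protein, was at 78.1 and 59.3 CPM.

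Genes that cause Diamond-Blackfan anaemia in people, a failure of red cell production, were taken as a further set, also after the values were seen. Of 12 such genes, 9 were 2-fold or more higher in the myeloid library. This stands against 40 of the 79 tested members of the family, or 50.6%, and 28.6% of all genes tested. *rps19*, the gene most often mutated in that disease, was at 82.7 CPM in the myeloid cells and 30.3 CPM in the lymphocytes (2.73-fold). *rpl35a* was at 63.5 and 31.7 CPM, close to the family median. *rpl38*, which in mice is needed for translation of Hox mRNAs, was at 16.02 CPM in the myeloid cells and 5.94 CPM in the lymphocytes (2.70-fold).

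Several members share a protein's number with another member, which does not mean that both encode the same protein. *rpl22* and its paralog *rpl22l1*, which act against each other in blood development, were both higher in the myeloid library. *rpl22* was at 64.5 CPM in the myeloid cells and 19.95 CPM in the lymphocytes, and *rpl22l1* at 19.4 and 6.31 CPM. *rpl22* thus held 76.9% of the pair's reads in the myeloid cells (95% Wilson interval 75.4% to 78.3%) and 76.0% in the lymphocytes (73.0% to 78.7%), a difference within counting error. *rpl7* held 53.5% of the reads of *rpl7* and *rpl7l1* in the myeloid cells (53.0% to 54.0%) and 48.4% in the lymphocytes (47.6% to 49.2%). Of the *rpl5* genes, ENSDARG00000015862 held 55.9% in the myeloid cells (55.1% to 56.7%) and 53.4% in the lymphocytes (52.0% to 54.8%). In both pairs the balance differed by a few percentage points, which was more than counting error, and in the first the gene with most reads was *rpl7* in the myeloid cells and *rpl7l1* in the lymphocytes.

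The *rps27* and *rps26* genes differed more in balance. *rps27.1* took 89.8% of the reads of *rps27.1* and *rps27.2* in the myeloid cells (89.1% to 90.5%) and 79.6% in the lymphocytes (78.1% to 81.0%), with *rps27.1* at 159.9 and 73.8 CPM and *rps27.2* at 18.1 and 18.9 CPM. Of the *rps26* genes, ENSDARG00000030408 held 67.8% in the myeloid cells (66.0% to 69.5%) and 75.1% in the lymphocytes (72.2% to 77.8%). How alike these copies are in sequence was not examined. In the thymus library, reads that did not align uniquely were not counted on any gene, while the myeloid table held no such count. The values of single copies are therefore uncertain beyond the counting intervals.

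**Figure D4:**
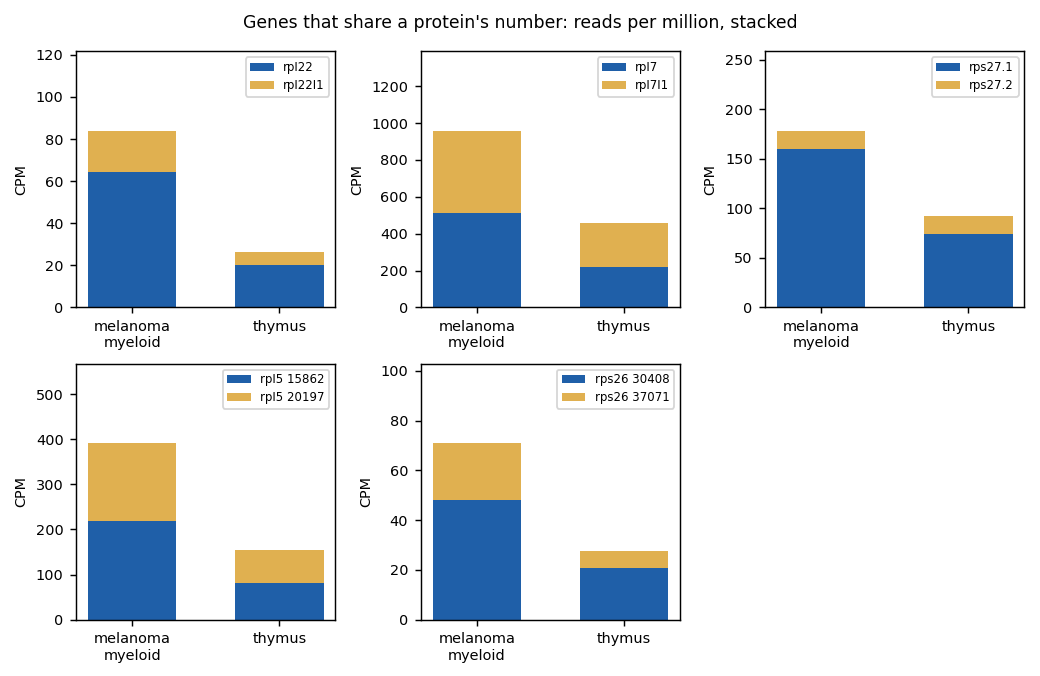
CPM of 5 pairs of genes that share a protein's number, stacked, in melanoma myeloid cells (left bar) and thymus lymphocytes (right bar), 1 library each. *rps27.1* makes up 89.8% of the myeloid bar and 79.6% of the thymus bar of its pair, whereas *rpl22* makes up 76.9% and 76.0%. Numbers after a symbol are the last digits of the Ensembl identifier.

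A few members had almost no reads. *rpl26*, whose protein sits at the mouth of the exit tunnel, had 0 reads in the myeloid cells and 1 in the lymphocytes. *rps11l* had 5 and 0 reads. *rpl9* had 84 reads in the myeloid cells and 24 in the lymphocytes, or 2.13 and 0.728 CPM, and entered the tested genes only through its myeloid level. Of the reads listed for the thymus lymphocytes, 6966482, or 15.1%, were given as not uniquely aligned and were not counted on any gene. Whether reads of these members were among them was not tested.

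Of related genes whose listed symbols fall outside the rule, *rpsa2* was at 519.7 CPM in the myeloid cells and 388 CPM in the lymphocytes, *faub* at 24.9 and 17.9 CPM, and *rplp2l*, with 1069 and 688 reads, was 1.30-fold higher in the myeloid library. *rps27l*, a close relative of the *rps27* genes, was at 387 CPM in the myeloid cells and 131 CPM in the lymphocytes, a 2.96-fold difference. With 5 such genes added, the family was 1.76-fold higher and its median log2 ratio 0.98. *rpl27a*, *rpl36a*, *rpl37a*, *rpl41*, *rpsa* and *rps4x* matched no listed symbol.

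The lists of other translation genes had lower medians than the ribosomal protein genes. Closest was the median of 6 genes for factors at the ribosome, at 0.88 against 1.02 for the tested members. Genes of the mitochondrial ribosome, 75 in all, had a median log2 ratio of 0.40, with 20, or 26.7%, at 2-fold or more higher and 6, or 8.0%, at 2-fold or more lower in the myeloid library, against 28.6% and 46.4% of all genes tested. *mrps30* was at 333 CPM in the myeloid cells and 129 CPM in the lymphocytes. The 18 tested elongation factors and the enzymes that modify them had a median of 0.21, with *eef1a1l1* at 1512 and 1292 CPM and *eef2b* at 758 and 1306 CPM. *eif5a*, which helps the ribosome past proline stretches, was at 743 and 272 CPM, while *eif5a2* was at 597 and 585 CPM. *tpt1*, also on this list, was at 434 CPM in the myeloid cells and 298 CPM in the lymphocytes.

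The 55 initiation factors had a median log2 ratio of −0.31, with 13, or 23.6%, at 2-fold or more higher and 14, or 25.5%, at 2-fold or more lower in the myeloid library, against 28.6% and 46.4% of all genes tested. *eif6*, which keeps the subunits apart, was at 1148 CPM in the myeloid cells and 476 CPM in the lymphocytes, whereas *pabpc1a*, the poly(A) binding protein, was at 249.9 and 1275 CPM and *eif4g2* at 875 and 2342 CPM. Of 42 genes of ribosome assembly, 18, or 42.9%, were 2-fold or more lower in the myeloid library, near the 46.4% of all genes tested, and 5, or 11.9%, were 2-fold or more higher, against 28.6%. Their median of −0.66 was close to that of all genes. *ncl*, nucleolin, was at 348 CPM in the myeloid cells and 2322 CPM in the lymphocytes, a 6.68-fold lower level. *nop58* was at 789 and 1384 CPM, *wdr43* at 419 and 949 CPM, and *npm1a* at 1111 and 1016 CPM.

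Of 9 tested growth control genes, 4, or 44.4%, were 2-fold or more lower in the myeloid library, near the 46.4% of all genes tested. Of the list 1 gene, *mycn*, was 2-fold or more higher, or 11.1% against 28.6%, at 254 CPM in the myeloid cells and 5.91 CPM in the lymphocytes. *mych* was at 221 and 389.6 CPM and *max* at 562 and 283 CPM. The list was also meant to hold *myca* and *mycb*, which matched no listed symbol. The genes listed as *myc* are therefore not in these counts. Of these, 1 was 4.43-fold higher in the myeloid library and 1 was 28.0-fold lower, as given under the other observations. Of 6 genes for factors at the ribosome, all had a ratio above 0, against 41.1% of all genes tested. Among them *rack1*, a scaffold on the small subunit, was at 283 CPM in the myeloid cells and 177 CPM in the lymphocytes, *naca*, which binds emerging chains, at 321 and 227 CPM, *btf3*, its partner, at 119 and 108 CPM, and *ssr2*, of the translocon, at 226 and 37.1 CPM.

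**Figure D5:**
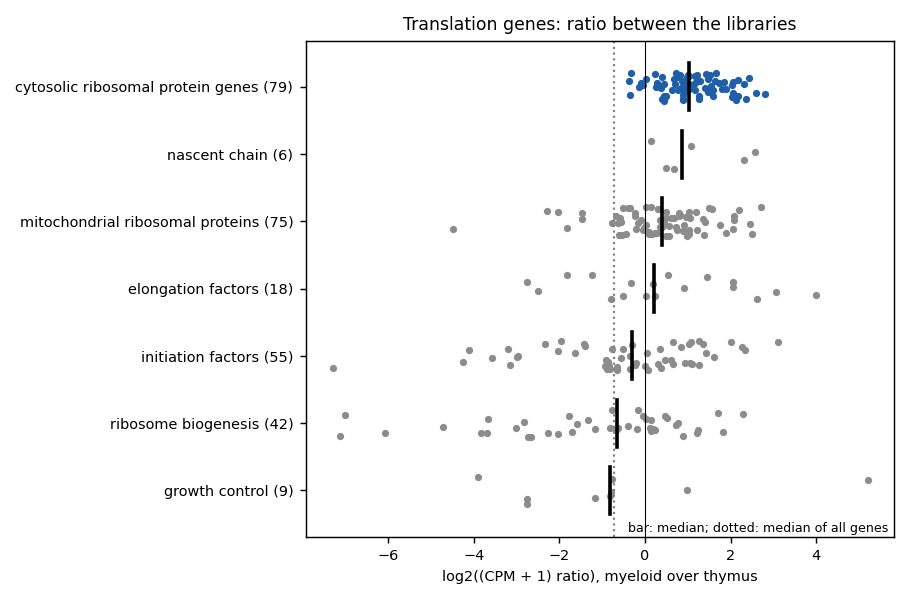
Log2 ratio of CPM + 1, melanoma myeloid cells over thymus lymphocytes, for each tested gene of the ribosomal protein family and of 6 lists of translation genes, with the number of genes in brackets and the median as a bar. The dotted line is the median of all genes, −0.73. The 79 ribosomal protein genes lie between −0.38 and 2.81 around a median of 1.02, while the 42 assembly genes spread around −0.66.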

How the data were processed

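Cells were sorted, cDNA was amplified from little RNA (SMART-Seq) and Nextera XT was used for the libraries. The files deposited by the authors hold unscaled read counts per Ensembl gene from htseq-count. Their processing notes name cutadapt, STAR with the version given as 3.0, HTSeq and GRCz11, whereas the methods of the paper name TopHat, GRCz10 and FPKM. Counting options and annotation release are not given in the sources used here. The thymus table also held 5 summary counts, 28.4% of its reads, which were left out. The myeloid table held none.

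Symbols came from a table of gene names, in lower case here, for 29201 of 32520 identifiers. *fau* was traced to *faua* through the RefSeq table for GRCz12tu. CPM, Wilson intervals of shares and exact (Clopper-Pearson) intervals of folds came from scipy 1.17.1 and pandas 2.3.3, with numpy 2.4.6, under Python 3.11.15, with 1 CPM added for log2 ratios. A gene counted as tested if it reached 1 CPM in at least 1 library. The code was tested on simulated data. With 1 library per group no p-value was computed.

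The members and lists were chosen with earlier results of these data known. Named with values are members 2-fold or more from the family median, the 5 with most reads per library, those with few reads, paralogs, members known from disease, and up to 4 genes of most reads per list. Further members, the groups by place in the ribosome, the anaemia set and the genes outside the rule were chosen after their values were seen. Alternatives were TMM (edgeR 4.0.16) and DESeq2 1.42.0 size factors in R 4.3.3, other library sizes, pseudocounts, folds, filters and members. Figures were drawn with matplotlib 3.10.9. Some genes are counted in the sums, medians and counts but are not reported here, and 4 tested members are left out of the plots by gene, by number and by pair.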

Additional observations from a re-analysis of the deposited data

How the results depend on the processing

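No paired analysis was possible because there was a single library on each side, and for the same reason no replicate could be left out. The family was higher in the myeloid library under each alternative run. The fold of its summed level, 1.77, was 2.64 with TMM, 2.56 with DESeq2 size factors, 1.86 when the top 10 genes of each library were dropped from the library sizes, 1.82 without melanocyte and mitochondrially encoded genes and 1.75 without like-named paralogs and ubiquitin fusions. Chosen after seeing the data, it was 1.85 without *rpl3*, 1.61 over members numbered up to 20 and 2.72 over those above. The median log2 ratio, 0.99, was 1.57 with TMM, 1.52 with DESeq2 size factors, 0.83 over members numbered up to 20 and 1.53 over those above. It moved by less than the typical counting interval of a member under the other alternatives. Of all 82 members, tested or not, the 12 above and 8 below the family became 20 and 17 at a fold of 1.5 and 0 and 0 at a fold of 4, by construction of the limit. Of 316 values of 79 members under 4 alternatives, none that was 2-fold or more changed sign, which could not have come out otherwise. No tested member was 2-fold lower, the other scalings raised the ratios, and another pseudocount keeps the sign. The 6 negative ratios all changed sign with TMM and with DESeq2 size factors, and 1, of *rps27.2*, did without these top genes. The values of *rpl26*, *rps11l* and *rpl9* rest on few reads, and the reason for this was not tested.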

Other observations

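The kinases that share the prefix of the small subunit genes but are no ribosomal proteins were looked at after their values were seen. *rps6kb1a*, an S6 kinase that phosphorylates Rps6, was at 24.1 CPM in the myeloid cells and 169 CPM in the lymphocytes, a 7.03-fold lower level, and *rps6kb1b* was at 53.2 and 90.9 CPM. *rps6ka1*, of the family of kinases below ERK, had 1 read in the myeloid cells and 5762 reads in the lymphocytes. *rps6ka4* had 1 and 439 reads and *rps6ka5* 3 and 282 reads. The *rps6ka3* genes, by contrast, were present in both libraries, ENSDARG00000035556 at 98.2 CPM in the myeloid cells and 207 CPM in the lymphocytes and ENSDARG00000057927 at 32.7 and 54.5 CPM. *rps6* itself was 2.41-fold higher in the myeloid library.

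The genes listed as *myc*, which are not in the counts of growth control genes, went opposite ways. ENSDARG00000007241 was at 191 CPM in the myeloid cells and 43.2 CPM in the lymphocytes, a 4.43-fold difference, and ENSDARG00000045695 was at 4.69 and 131 CPM, or 28.0-fold lower in the myeloid library.

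Among genes of ribosome assembly, *heatr1* had no reads in the myeloid cells and was at 128 CPM in the lymphocytes. Of all genes tested, 1642 had no reads in the myeloid cells, against 556 in the lymphocytes. *polr1b* and *polr1a*, the large subunits of RNA polymerase I, were at 0.0254 and 35.7 CPM in the myeloid cells and 142 and 231 CPM in the lymphocytes, while *polr1d* and *polr1c*, which it shares with RNA polymerase III, were at 43.4 and 286 CPM in the myeloid cells and 8.13 and 121 CPM in the lymphocytes. Subunits of 1 enzyme thus differed in direction between these libraries, and the cause was not tested.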
